A study of Mus musculus with 8 samples.

Results

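The killer lectin-like receptors are C-type lectin-like surface proteins known from natural killer cells and from subsets of activated T cells. The 6 genes described here are Klrd1, Klrc1, Klrc2, Klrk1, Klrg1 and Klrb1c. They were taken by symbol from probe sets annotated with exactly 1 gene, and each was read by a single probe set. They are 6 of 19938 genes measured.

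The values come from 8 Affymetrix arrays of mouse T helper cells, in 4 groups of 2 arrays. Wild-type Th1 and wild-type Th17 cells came from Tet2(f/f) mice, which carry Tet2 alleles flanked by loxP sites and no Cre. Tet2-deficient Th1 and Tet2-deficient Th17 cells came from CD2(Cre)Tet2(f/f) mice, in which Cre recombinase is under CD2 control and so is not confined to T helper cells. The loxP-flanked alleles are therefore shared by all groups, and no group carried Cre alone. Tet2 starts the removal of methyl groups from DNA by oxidizing them, and the series title places it in the control of T cell cytokine expression. The labels call the arrays biological replicates, but give neither the age, sex or strain of the mice nor how the cells were isolated and cultured. Since the labels do not say that the replicates came from separate animals, p-values measure only the spread between these arrays. The 2 arrays of each Th17 group differed in sex-linked transcripts, as given below, so they did not read RNA of the same make-up. The Th1 arrays showed no such difference.

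CD94, encoded by Klrd1, is carried to the surface as a dimer with a protein of the NKG2 family. With the Klrc1 product NKG2A it forms an inhibitory receptor, and with the Klrc2 product NKG2C an activating receptor, both of which bind the MHC class Ib molecule Qa-1. NKG2D, encoded by Klrk1, is an activating receptor for stress-induced ligands and signals through the adaptors DAP10 (Hcst) and DAP12 (Tyrobp). Klrg1 encodes an inhibitory receptor for cadherins that marks late effector T cells and mature natural killer cells. Klrb1c encodes NK1.1, which marks natural killer and natural killer T cells in those strains that carry it.

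Of these 6 genes Klrd1 varied most over the arrays. Its signal was highest in Tet2-deficient Th17 cells, 3.32-fold above Tet2-deficient Th1 cells, which passed the test, and 2.38-fold above wild-type Th17 cells, which did not. Klrc1 and Klrc2, the genes of its dimer partners, also had their highest mean in Tet2-deficient Th17 cells, by smaller margins that did not pass. In both genes these arrays overlapped those of Tet2-deficient Th1 cells. Klrc1, Klrc2, Klrk1, Klrg1 and Klrb1c all stayed below the array's median gene on all 8 arrays.

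All members but Klrg1 lie in the natural killer receptor cluster of chromosome 6, where Klrd1, Klrk1, Klrc3, Klrc2 and Klrc1 follow each other in this order among the genes measured. Promoter windows from RefSeq (GRCm38.p6), each with 250 bases before and 50 after a start site, matched 4 of the 6 genes, in 5 windows. The windows of Klrd1 and Klrg1 were not used here. The windows of Klrc1 and Klrc2, the genes whose products compete for CD94, are shown because the series concerns DNA methylation, which is set at CG dinucleotides. Capitals mark each CG and each match to the Runx letters TGTGGT or their reverse complement ACCACA. The Klrc1 window is at chr6:129678924-129679223 and the Klrc2 window at chr6:129660547-129660846, both on the minus strand.
Klrc1: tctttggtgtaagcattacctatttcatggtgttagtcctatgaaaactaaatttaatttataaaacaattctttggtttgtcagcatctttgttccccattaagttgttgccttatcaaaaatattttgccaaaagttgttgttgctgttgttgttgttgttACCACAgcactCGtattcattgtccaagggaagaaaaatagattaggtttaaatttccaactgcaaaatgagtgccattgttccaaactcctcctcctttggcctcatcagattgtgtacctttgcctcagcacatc
Klrc2: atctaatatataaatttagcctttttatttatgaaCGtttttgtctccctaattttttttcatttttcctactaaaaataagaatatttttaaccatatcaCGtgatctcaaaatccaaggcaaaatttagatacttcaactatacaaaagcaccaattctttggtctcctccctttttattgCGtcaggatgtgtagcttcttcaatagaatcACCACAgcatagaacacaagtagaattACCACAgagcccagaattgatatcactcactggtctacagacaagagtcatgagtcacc

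The Klrc1 window held 1 CG and the Klrc2 window 3, where the median over all 32851 windows was 7. Klrb1c had 1 CG and Klrk1 4, and a second start site of Klrc2, whose window overlaps the first, had 2. Of all windows, 14.1% held at most 1 CG and 38.0% at most 4. Each of the 5 windows held a match to the Runx letters, a class of transcription factor active in T cells, against 16.8% of all windows. The windows overlap for Klrc2, and a match is a description of letters and not a binding site. The Ets letters GGAAGT, or ACTTCC on the other strand, were found in the Klrb1c window and in 23.8% of all windows. The T-box letters GTGTGA or TCACAC were in none of the 5 and in 14.5% of all windows.

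The labelled cell type was checked first. Cd4, the coreceptor gene of helper T cells, lay between 10.2 and 10.4 log2 signal on every array, while Cd8a lay between 6.13 and 6.50. The Th1 genes Ifng and Tbx21 were far higher on the Th1 arrays and Il17a on the Th17 arrays, as the labels have it. Tet2 itself was read at 8.14 and 8.02 on the wild-type Th1 arrays, 8.12 and 7.98 on the Tet2-deficient Th1 arrays, 8.51 and 8.49 on the wild-type Th17 arrays and 8.34 and 8.39 on the Tet2-deficient Th17 arrays. The labels do not say which exons were deleted, so this probe set does not check the deletion. The Th17 arrays differed in sex-linked transcripts. Xist, the RNA that coats the silenced X of female cells, read 5.15 and 10.1 on the wild-type and 8.60 and 11.3 on the Tet2-deficient Th17 arrays, against 4.80 to 5.07 on the Th1 arrays. Eif2s3y, a Y-linked gene, read 9.65 and 8.46 on the wild-type and 9.36 and 4.33 on the Tet2-deficient Th17 arrays, so the array with the highest Xist, replicate 2, had by far the lowest Y-linked signal. With Tet2-deficient Th17 replicate 2 set to 100%, the Xist share was 0.187% and 42.9% on the wild-type and 14.7% on the other Tet2-deficient Th17 array. The median gene had a log2 signal between 6.53 and 6.61 on each array. Probe sets differ in how strongly they respond, so a gene's place among all genes is only a rough guide to its abundance. Errors after ± are standard errors of log2 fold changes, or SDs where so marked, with n = 2 arrays a group. Called genes are those whose limma p, adjusted over all 19938 genes, lay under 0.05.

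On the Th1 arrays Klrd1 read 5.94 and 5.70 (log2 signal) with Tet2 and 5.89 and 5.97 without. On the Th17 arrays it read 6.30 and 6.51 with Tet2 and 7.25 and 8.07 without. The Th1 arrays overlapped, both wild-type Th17 arrays lay above all Th1 arrays, and both Tet2-deficient Th17 arrays lay above everything else. Of the 8 arrays these 2 were the only ones on which any of the 6 genes, in each case Klrd1, exceeded the array's median gene. In order of the group means, wild-type Th1 (5.82 ± 0.17, SD, n = 2) and Tet2-deficient Th1 (5.93 ± 0.06, SD, n = 2) did not differ beyond their spread. Wild-type Th17 (6.41 ± 0.15, SD, n = 2) and Tet2-deficient Th17 (7.66 ± 0.58, SD, n = 2) followed. The 2 Tet2-deficient Th17 arrays differed from each other by 0.82 in Klrd1, and 99.8% of all genes had a smaller SD in that group. The range of Klrd1 over the 8 arrays, 2.37, was wider than that of 99.7% of genes. In such bulk samples more cells carrying a transcript and more of it per cell cannot be told apart.

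Klrc1 read 4.97 and 5.24 on the wild-type Th1 arrays, 5.61 and 5.28 on the Tet2-deficient Th1 arrays, 5.21 and 5.29 on the wild-type Th17 arrays and 5.42 and 5.99 on the Tet2-deficient Th17 arrays. Its highest array was Tet2-deficient Th17 replicate 2, as for Klrd1, and the groups of either genotype overlapped between subsets. The SD of Klrc1 within Tet2-deficient Th17 cells was 0.40, above that of 99.2% of genes in that group. Klrc2 read 5.80 and 5.86 on the wild-type Th1 arrays, 5.86 and 5.79 on the Tet2-deficient Th1 arrays, 5.46 and 5.52 on the wild-type Th17 arrays and 5.81 and 6.07 on the Tet2-deficient Th17 arrays. Here the wild-type Th17 arrays were the low ones, below the other 6 arrays, and Tet2-deficient Th17 cells stood near the level of Th1 cells. Klrc1, Klrc2 and Klrc3 are close paralogs, and how far their probes read one another's transcripts was not tested. Klrc3 itself lay at a mean of 3.70 over the arrays.

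Klrk1 read between 4.30 and 4.79 over the 8 arrays, Klrg1 between 4.94 and 5.30, and Klrb1c between 3.90 and 4.22. Their group means lay at most at the 9.05th percentile of genes for Klrk1, the 18.3rd for Klrg1 and the 3.21st for Klrb1c. Klrk1 had 4.67 and 4.69 with Tet2 against 4.79 and 4.70 without on the Th1 arrays, and 4.30 and 4.59 against 4.51 and 4.47 on the Th17 arrays. All Th17 arrays were below all Th1 arrays in Klrk1. The nearest, at 4.59 and 4.67, were closer to each other than the wild-type Th17 arrays were. Klrg1, at 5.30 and 5.25, 5.25 and 5.19, 5.30 and 5.03, and 4.94 and 5.20 in the same order of groups, showed overlapping Th17 groups and a difference of -0.06 between the Th1 genotypes. Klrb1c, at 4.22 and 4.19, 4.07 and 3.90, 3.99 and 4.02, and 4.18 and 4.01, was among the lowest genes of the array in every group.

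**Figure D1:**
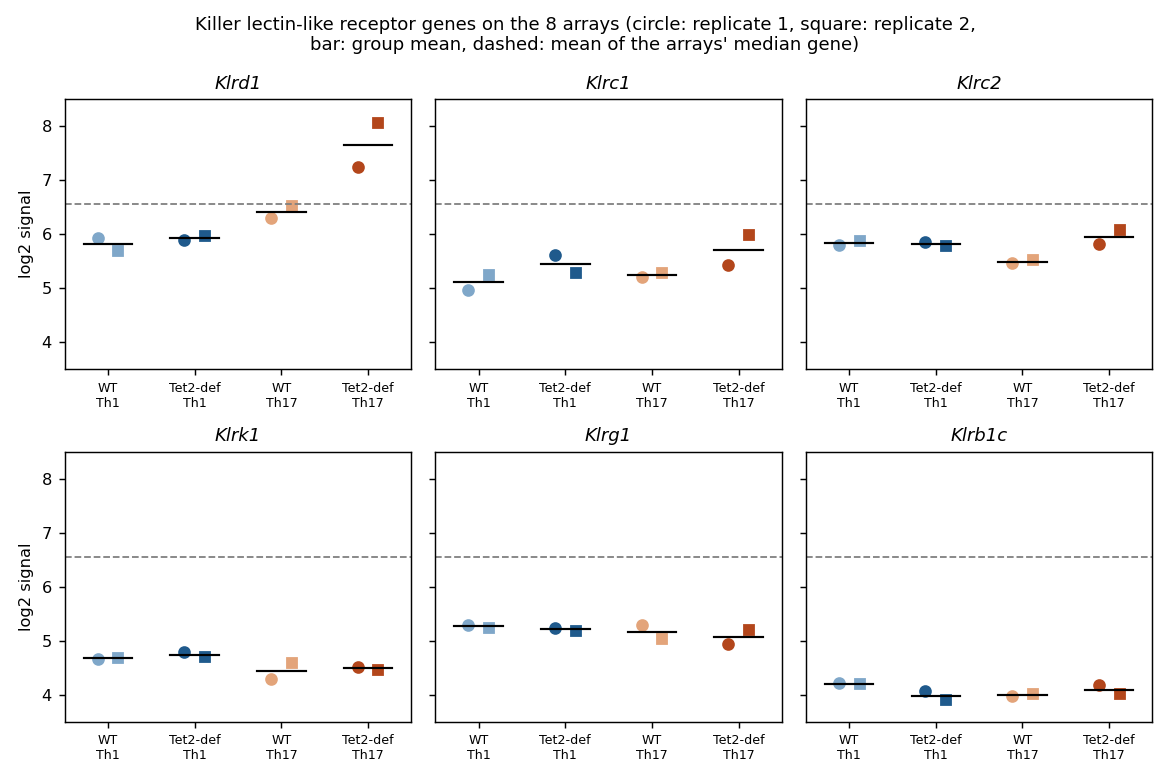
Log2 signal (y axis) of the 6 receptor genes in the 4 groups (x axis); circles are replicate 1, squares replicate 2, bars group means, and the dashed line is the mean of the arrays' median gene. Klrd1 crosses the dashed line only on the Tet2-deficient Th17 arrays, at 7.25 and 8.07, and the other 5 genes stay below it.

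Between genotypes in Th17 cells, Klrd1 had the largest difference of the 6, a log2 fold change of 1.25 ± 0.20 in Tet2-deficient against wild-type cells (95% confidence interval 0.81 to 1.70, adjusted p = 0.183, limma). Its p-value ranked 5 of 19938, and the size of its fold change exceeded that of 99.97% of genes, but it did not pass. Klrc1 had 0.46 ± 0.17 (adjusted p = 1, limma) and Klrc2 0.45 ± 0.11 (adjusted p = 0.743, limma). Limma called 0 of the 6 genes, where 0% of all genes were called. Klrd1, Klrc1 and Klrc2, 3 of the 6, had an unadjusted p under 0.05, against 4.13% of all genes. The same 3 were higher on both Tet2-deficient arrays than on both wild-type arrays, against 18.8% of all genes that were higher without overlap and 32.9% that did not overlap in either direction. The median over the 6 genes was 0.27, against 0.01 over all genes. Klrk1 (0.05), Klrb1c (0.09) and Klrg1 (-0.09) had overlapping arrays, with 95% confidence intervals of -0.21 to 0.30, -0.15 to 0.33 and -0.36 to 0.18. A signal change of Klrd1's size lies outside these 3 intervals. All 3 genes read below the median gene on every array, however, where a change in transcript may not show.

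The Klrd1 difference depended on which Tet2-deficient Th17 array was kept, as did that of Klrc1. Without replicate 1 it was 1.66 and was called (adjusted p = 0.00203, limma), and without replicate 2, the array with the highest Xist and lowest Eif2s3y, it was 0.84 (adjusted p = 0.432). Klrc1 had 0.74 without replicate 1 and 0.17 without replicate 2, and Klrc2 0.58 and 0.32, none of them called. With the Xist share as a covariate the Klrd1 difference was 0.94 (adjusted p = 0.185), and Klrc1 and Klrc2 had 0.25 and 0.35. Over the alternatives run, the adjusted p of Klrd1 went from 0.00203 to 0.885. Within each genotype, the Th17 array with the higher Xist also had the higher Klrd1, and the part of a sex difference in the result beyond this covariate was not tested.

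In Th1 cells the same comparison gave 0.11 ± 0.20 for Klrd1 (95% confidence interval -0.33 to 0.56, adjusted p = 0.964, limma), 0.34 ± 0.17 for Klrc1 and -0.01 ± 0.11 for Klrc2. Klrk1 had 0.07, Klrg1 -0.06 and Klrb1c -0.22. Limma called 0 of the 6, where 0.00502% of all genes were called, and 0 of the 6 had an unadjusted p under 0.05, against 6.05% of all genes. In 4 of the 6 genes the arrays of the genotypes did not overlap, 2 higher and 2 lower, against 33.3% of all genes, and 19.6% that were higher. Klrc1 and Klrk1 were the higher ones, Klrg1 and Klrb1c the lower ones, all under the median gene. Klrc1 was higher on both Tet2-deficient Th1 arrays (5.61 and 5.28 against 4.97 and 5.24), though the nearest arrays almost met. The median over the 6 was 0.03, against 0.01 over all genes.

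The genotype effect in Th17 cells minus that in Th1 cells was 1.14 ± 0.29 for Klrd1 (95% confidence interval 0.51 to 1.77, adjusted p = 0.980, limma). It was 0.46 ± 0.16 for Klrc2 and 0.12 ± 0.25 for Klrc1. Limma called 0 of the 6, where 0% of all genes were called, and 2 of the 6, Klrd1 and Klrc2, had an unadjusted p under 0.05, against 4.48% of all genes. A genotype effect particular to Th17 cells was therefore not called for any of the 6. Without Tet2-deficient Th17 replicate 1 the Klrd1 difference was 1.55 and was called, and without replicate 2 it was 0.73 and was not (adjusted p = 0.0408 and 0.999, the lowest and highest over the alternatives).

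The subset comparison within Tet2-deficient cells gave the call among these receptors. Klrd1 was higher in Tet2-deficient Th17 than in Tet2-deficient Th1 cells by 1.73 ± 0.20 (3.32-fold, 95% confidence interval 1.29 to 2.17, adjusted p = 0.000207, limma). It was the 1 gene of the 6 called, where 10.1% of all genes were called in either direction, 6.32% higher and 3.79% lower. Klrd1 and Klrk1, 2 of the 6, had an unadjusted p under 0.05, against 24.8% of all genes. The arrays of 2 of the 6 did not overlap, Klrd1 higher and Klrk1 lower, against 57.5% of all genes, 25.8% higher. Klrk1 had -0.25 ± 0.12 (adjusted p = 0.199), Klrc1 0.26 ± 0.17 (0.400), Klrc2 0.12 ± 0.11 (0.560), Klrg1 -0.14 ± 0.12 (0.527) and Klrb1c 0.11 ± 0.11 (0.596). Klrd1 was called under every alternative that tested it, with log2 fold changes from 1.23 with the Xist share as a covariate to 2.14 without Tet2-deficient Th17 replicate 1. This comparison and the genotype comparison in Th17 cells use the same 2 Tet2-deficient Th17 arrays. Xist was also called between these subsets (4.97 ± 1.13, adjusted p = 0.0155, limma), so subset and sex-linked signal differed together. The part of a sex difference in the Klrd1 call beyond the Xist covariate was not tested.

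In wild-type cells the subset difference of Klrd1 was 0.59 ± 0.20 (1.51-fold, 95% confidence interval 0.15 to 1.03, adjusted p = 0.0969, limma) and did not pass. Klrc2 went the other way, with -0.34 ± 0.11 (adjusted p = 0.0878), since its wild-type Th17 arrays were the lowest. Klrk1 had -0.23 ± 0.12 (adjusted p = 0.237), Klrb1c -0.20 ± 0.11, Klrg1 -0.11 ± 0.12 and Klrc1 0.14 ± 0.17. Limma called 0 of the 6, where 8.4% of all genes were called, 4.97% higher and 3.44% lower, and 2 of the 6 had an unadjusted p under 0.05, against 24.5% of all genes. In 4 of the 6 the arrays did not overlap, Klrd1 higher and Klrc2, Klrk1 and Klrb1c lower, against 52.2% of all genes, 23.8% higher. Klrd1 was called in a fit on the 4 wild-type arrays alone (adjusted p = 0.0323). It was also called when either Tet2-deficient Th17 array, which is in neither group but enters the shared spread, was left out (adjusted p = 0.0188 without replicate 1 and 0.0184 without replicate 2, up to 0.389 over the alternatives).

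**Figure D2:**
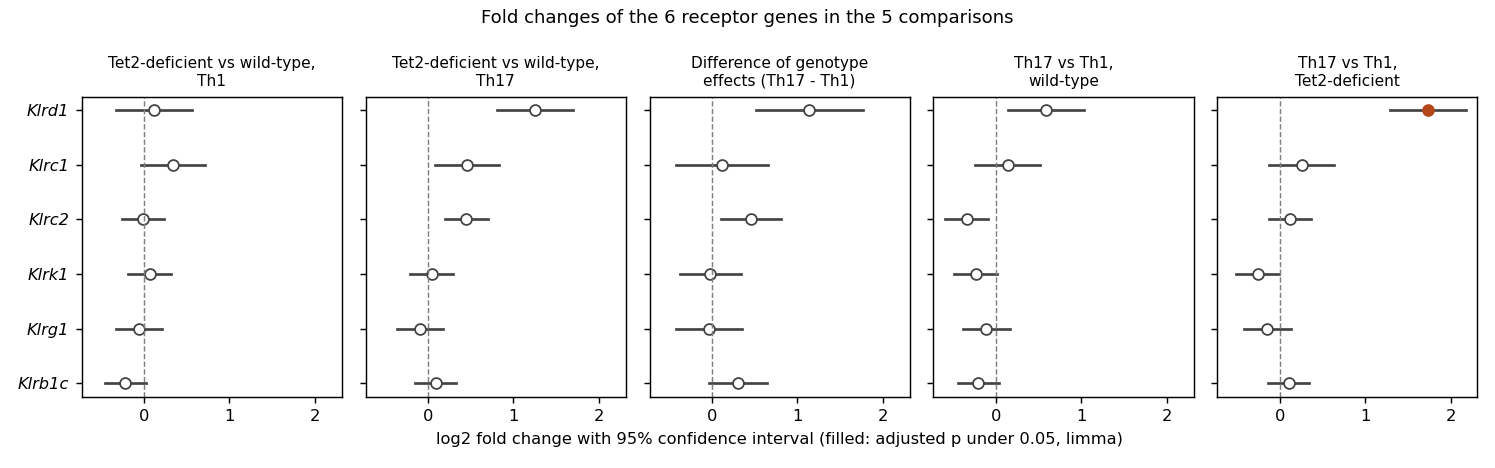
Log2 fold changes (x axis) of the 6 receptor genes (rows) in the 5 comparisons (panels), with 95% confidence intervals; filled points passed at an adjusted p under 0.05. The filled point is Klrd1 in Th17 against Th1 cells without Tet2, at 1.73, and the Klrd1 interval in the Th17 genotype comparison runs from 0.81 to 1.70.

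**Figure D3:**
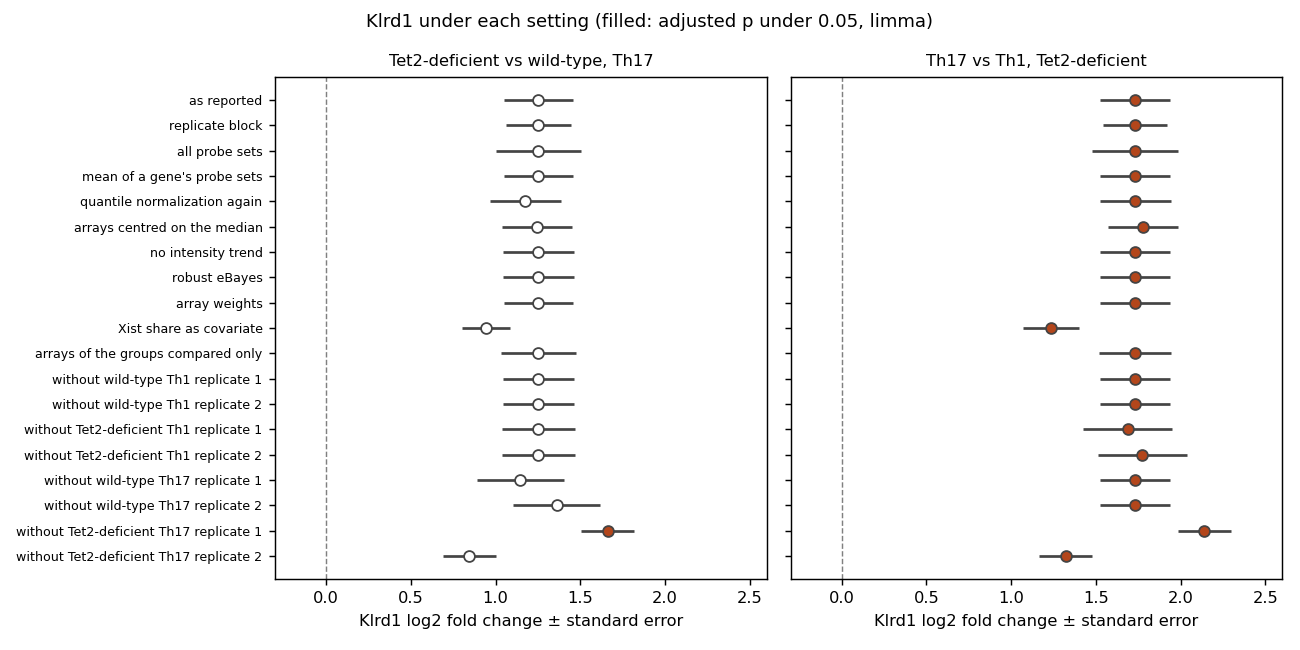
Klrd1 log2 fold change with its standard error (x axis) under each setting (rows) for the genotype comparison in Th17 cells and the subset comparison in Tet2-deficient cells; filled points passed. In the left panel the value runs from 0.84 to 1.66 and passes only without Tet2-deficient Th17 replicate 1, and in the right panel every setting passes.

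The genes around Klrd1 on chromosome 6 are mostly other lectin-like receptors and their ligands. The stretch from Klrb1a to Klra2 held 39 measured genes, 5 of them members. In Th17 cells the 34 others had genotype log2 fold changes from -0.18 to 0.37 with a median of 0.06, 20 above 0 and 14 below, and 0 were called. The neighbours of Klrd1, Klre1 on one side (0.06) and Klrk1 on the other (0.05), showed nothing near its 1.25. These neighbours were named after their values were seen. Both read low on all arrays, Klre1 between 4.57 and 4.73 and Klrk1 between 4.30 and 4.79, where a change may not show. The members Klrc2 and Klrc1, further along, had 0.45 and 0.46.

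**Figure D4:**
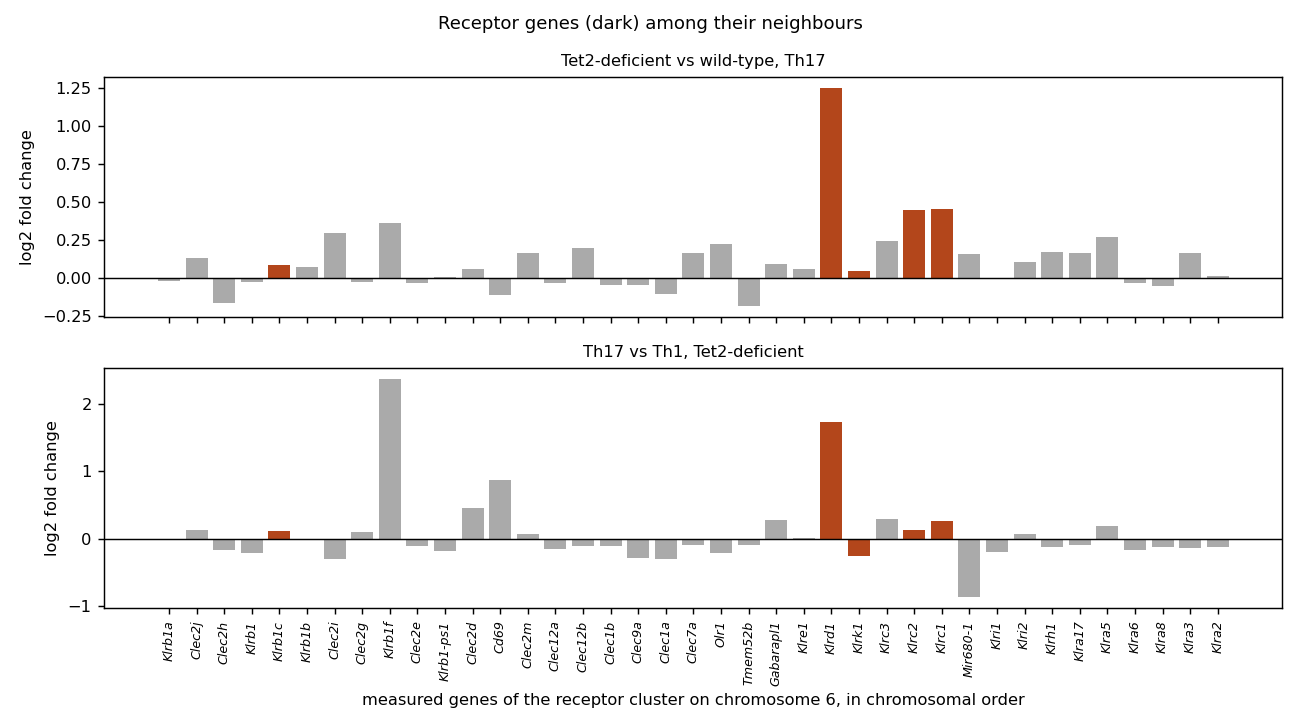
Log2 fold changes (y axis) of the 39 measured genes of the receptor cluster in chromosomal order (x axis), with members dark. Klrd1 stands at 1.25 in the genotype comparison of Th17 cells and at 1.73 in the subset comparison of Tet2-deficient cells, where Klrb1f reaches 2.37.

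Of 22 other killer lectin-like and Ly49 receptor genes listed, 17 were measured, and 16 of these stayed below the median gene on every array. The exception was Klrb1f, which encodes a receptor of the NKR-P1 family. It read 5.19 and 5.27 on the wild-type Th1 arrays, 5.81 and 5.61 on the Tet2-deficient Th1 arrays, 7.66 and 7.77 on the wild-type Th17 arrays and 7.75 and 8.41 on the Tet2-deficient Th17 arrays. All Th17 arrays were above all Th1 arrays, and Klrb1f rose from Th1 to Th17 cells by 2.49 ± 0.17 in wild-type (adjusted p = 3.2e-06, limma) and 2.37 ± 0.17 in Tet2-deficient cells (adjusted p = 5.4e-06). Its genotype difference in Th17 cells was 0.37 ± 0.17 and did not pass. Klra17 fell from Th1 to Th17 cells in wild-type cells (-0.55 ± 0.13, adjusted p = 0.0208), at low signals, from 4.47 and 4.73 to 4.20 and 3.89. In the Th17 genotype comparison 11 of the 17 were above 0 with a median of 0.08, and 0 were called.

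The adaptors of these receptors showed no genotype call, with 0 of 19 measured adaptor and signalling genes called in either subset. Of all genes, 0.00502% were called in Th1 and 0% in Th17 cells. Having 0 genotype calls therefore cannot set any list here apart from all genes. Hcst (DAP10) read 6.73 and 6.59 on the wild-type Th1 arrays, 6.64 and 6.70 on the Tet2-deficient Th1 arrays, 6.47 and 6.42 on the wild-type Th17 arrays and 6.46 and 6.59 on the Tet2-deficient Th17 arrays. Tyrobp (DAP12) ranged from 5.53 to 6.09, with a genotype log2 fold change of 0.09 ± 0.14 in Th17 cells. Ptpn6, which encodes the phosphatase SHP-1 that inhibitory receptors recruit, fell from Th1 to Th17 cells by -0.46 in wild-type (adjusted p = 0.0458) and -0.56 in Tet2-deficient cells (adjusted p = 0.0159). Inpp5d, which encodes the inositol phosphatase SHIP-1, rose by 0.67 (adjusted p = 0.0212) and 0.66 (adjusted p = 0.0198).

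Of 21 listed ligand genes 11 were measured, and H2-T23, which encodes the Qa-1 heavy chain, was not analysed here. No ligand gene was called between genotypes, where at most 0.00502% of all genes were called. Clec2d, which encodes a ligand of NKR-P1 receptors, rose from Th1 to Th17 cells by 0.59 in wild-type cells (adjusted p = 0.0265) and had 0.46 in Tet2-deficient cells (adjusted p = 0.0665). B2m, the light chain of MHC class I molecules including Qa-1, fell from Th1 to Th17 cells in Tet2-deficient cells, with -0.63 (adjusted p = 0.0315), and had -0.53 in wild-type cells (adjusted p = 0.0683).

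Of 21 measured transcription factor genes tied to natural killer and memory receptor expression, 0 were called between genotypes, with a median of 0.01 in Th17 cells. Between subsets, 6 were called higher and 6 lower in wild-type Th17 cells, and 6 higher and 7 lower in Tet2-deficient Th17 cells. Of all genes, 4.97% were called higher and 3.44% lower in the first, and 6.32% and 3.79% in the second. The T-box genes Tbx21 and Eomes, which drive natural killer and Th1 programs, were lower in Th17 cells, by -2.58 and -1.33 in wild-type and by -3.34 and -1.40 in Tet2-deficient cells (adjusted p at most 6.5e-05). By group mean, Klrd1 was highest where Tbx21 was lowest. Tbx21 read 7.45 and 7.85 with Tet2 against 6.92 and 7.28 without in Th17 cells, with a log2 fold change of -0.55 ± 0.16 (adjusted p = 0.789). Within each Th17 group, however, the array with more Klrd1 also had more Tbx21. A link between Tbx21 and Klrd1 was not tested. Blimp-1, a repressor encoded by Prdm1, had signals of 5.87 and 5.83 against 5.93 and 6.18 in the same Th17 arrays, and of 7.47 and 7.50 against 6.71 and 6.75 on the Th1 arrays, where the genotype difference of -0.76 ± 0.11 was not called (adjusted p = 0.210).

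Markers of other cells that carry these receptors were read beside them. Ncr1, a natural killer cell marker, lay at 4.55 and 4.17 on the wild-type and 4.57 and 4.69 on the Tet2-deficient Th17 arrays. Its means in these groups lay at percentiles 5.89 and 8.92 of all genes. Of 19 measured natural killer markers 11 were below the median gene on every array, and 0 were called between genotypes in Th17 cells (12 above 0, median 0.03). The summed linear signal of the list was 3070 to 3294 on wild-type and 3195 to 3393 on Tet2-deficient Th17 arrays, with overlap, and 6399 to 7511 on Th1 arrays. The list includes Nkg7 and Ccl5. From Th1 to Th17 cells they fell by -4.54 and -1.96 in wild-type and by -4.95 and -1.40 in Tet2-deficient cells. Ncr1 stayed between 4.17 and 4.81 on all arrays. The part of natural killer cells in the Klrd1 results was not tested. Of 8 CD8 T cell markers 0 were called between genotypes in Th17 cells (median 0.0041), with sums of 743.6 to 816 against 782.2 to 798.2. Their sums were 1222 to 1352 on the Th1 arrays. Between subsets 2 of the 8, Eomes and Runx3, were called lower in Th17 cells of either genotype. Of all genes, 3.44% were called lower in wild-type and 3.79% in Tet2-deficient cells. For 8 gamma delta and natural killer T cell markers the median was -0.02, with sums of 3073 to 3332 and 2774 to 3545 on the wild-type and Tet2-deficient Th17 arrays. On the Th1 arrays this list summed to only 878 to 927.3. Il23r and Maf weighed most in the Th17 sums, with means of 9.87 and 10.3 in wild-type Th17 against 5.34 and 6.60 in wild-type Th1 cells. A rise across the whole list cannot be read from the sums. Of the 8, 3 were called higher in wild-type Th17 than Th1 cells (Il23r, Maf and Slamf6), against 4.97% of all genes. In Tet2-deficient cells 4 were called higher (these and Cxcr6), against 6.32% of all genes, with 0 lower in either genotype. By sign, 3 of the 8 were below 0 in wild-type and 4 in Tet2-deficient cells. Il23r and Maf are also expressed by Th17 cells, and the part of such cells in the Klrd1 subset difference was not tested. Zbtb16, another marker of this list, read 6.71 and 6.61 on the wild-type against 6.55 and 6.48 on the Tet2-deficient Th17 arrays. For 7 B cell markers the sums were 360.9 to 387.6 and 349.7 to 402.6.

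The 12 myeloid markers summed to 1140 to 1318 on the wild-type and 1767 to 1960 on the Tet2-deficient Th17 arrays, without overlap. Ly6g had the highest signal of the 12 on every array and so weighed most in these sums. A rise across the whole list cannot be read from them. Between genotypes in Th17 cells 10 of the 12 were above 0, with a median of 0.09, against 54.4% of all genes, and 0 were called. Only Ly6g and Cd68 of them exceeded the median gene on any array, and the remaining 10 stayed below it on all arrays, Lyz2 and S100a8 among them. Ly6g, known as a neutrophil marker, read 9.03 and 9.53 on the wild-type and 10.4 and 10.1 on the Tet2-deficient Th17 arrays, and 8.35 to 8.72 in Th1 cells. Its genotype difference in Th17 cells was 0.98 ± 0.17 (adjusted p = 0.229, limma). From Th1 to Th17 cells Ly6g rose by 0.81 ± 0.17 in wild-type (adjusted p = 0.0111) and by 1.63 ± 0.17 in Tet2-deficient cells (adjusted p = 7.3e-05), the comparison in which Klrd1 was called. The part of myeloid cells in the Klrd1 results was not tested.

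**Figure D5:**
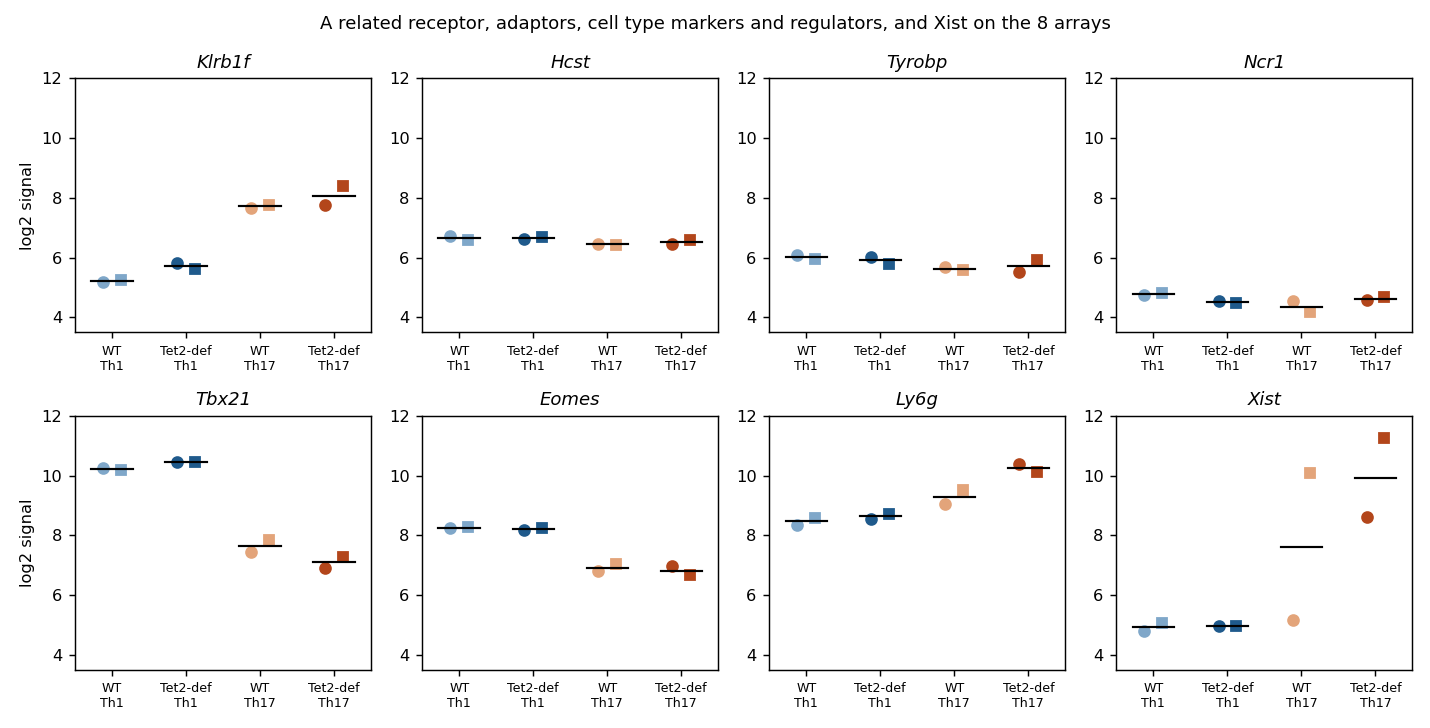
Log2 signal (y axis) of the related receptor gene Klrb1f, the adaptors Hcst and Tyrobp, the natural killer marker Ncr1, the T-box factors Tbx21 and Eomes, Ly6g and Xist in the 4 groups (x axis); circles are replicate 1, squares replicate 2 and bars group means. Klrb1f separates the subsets, Ncr1 stays between 4.17 and 4.81, and Xist spreads from 5.15 to 11.3 over the Th17 arrays.

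The genes whose pattern was most like that of Klrd1 over the 8 arrays were Dcn (Pearson r = 0.97), Naaa (0.95) and Zfp39 (0.95), among 1735 genes with an SD of at least 0.3. The 8 points share their subset and genotype and are not independent, so these values only describe the pattern. Dcn, which encodes the matrix proteoglycan decorin, read 5.25 and 5.40, 5.28 and 5.31, 5.55 and 5.84, and 6.05 and 6.52 in wild-type Th1, Tet2-deficient Th1, wild-type Th17 and Tet2-deficient Th17 cells. Because they were chosen for following Klrd1, their own differences between groups are not an independent result. Among the members, Klrd1 correlated with Klrc1 at 0.72, with Klrc2 at 0.37, with Klrk1 at -0.55 and with Klrg1 at -0.45.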

How the data were processed

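Total RNA of 8 samples was prepared with Trizol and end-labelled with biotin, per the labels. The deposited values are log2 probe-set signals made by the authors, and RMA, Affymetrix Expression Console and GCOS appear in the submitters' processing notes without version. They were used without further scaling. Signals have no counting depth, so the number of arrays limits the precision.

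Of 35556 probe sets, 21789 carried 1 symbol in the platform annotation and 1621 several, which were left out. The probe set with the highest mean was kept per gene, with no filter on low signal. Tests used limma 3.58.1 and R 4.3.3 (lmFit on 4 group means over all 8 arrays, eBayes with an intensity trend, 4 residual and 8.32 prior degrees of freedom), two-sided, with Benjamini-Hochberg adjustment over 19938 genes per comparison. The method was tested on simulated data. Members and gene lists were chosen with earlier results of these data known. Named are the 6 members, 15 control and context genes chosen by name (14 measured), listed genes that were called or, where a list had none, its largest changes in Th17 cells (not every one allowed is named), and the 3 genes most like a member above the median gene. Cd68, Klrc3, Klre1, Lyz2 and S100a8 were named after their values were seen. Alternatives were a replicate block, the arrays of the groups compared only, all probe sets without choice, averaged probe sets, a filter at the median level, renewed quantile normalization, centring, eBayes without trend or robust, array weights, the Xist share as covariate and each array left out.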

Additional observations from a re-analysis of the deposited data

How the results depend on the processing

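With 2 arrays a group, and 5 of the 6 genes under the median level on all arrays, small differences in these receptors cannot be resolved. The filter at the median level left out all 6. The replicate block, for which neither the labels nor the values give a pairing (correlations of same-numbered arrays from -0.19 to 0.06), changed no call on the 6 genes: Klrd1 stayed at 1.25 (adjusted p = 0.141) between genotypes in Th17 cells and at 1.73 (adjusted p = 0.000126) between subsets in Tet2-deficient cells, with 0, 0, 0, 0 and 1 of the 6 called in the 5 comparisons. The fit on the arrays compared called 1 of the 6 between wild-type subsets, against 0.

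Of all genes, 1 was called between genotypes in Th1 cells, against 0 probe sets where all probe sets were tested and 0 in the fit on the arrays compared. In Th17 cells 0 were called, against 1 with the filter, 2 with robust eBayes and 2 with array weights. Between subsets 1675 were called in wild-type cells, against 599 probe sets where all were tested and 1101 in the fit on the arrays compared, and 2015 in Tet2-deficient cells, against 1001 probe sets where all were tested and 726 with the Xist covariate. The highest counts under other settings were 1798 with centred arrays in wild-type and 2662 with array weights in Tet2-deficient cells. With an array left out, the counts ranged from 0 to 2 (Th1 genotype), 0 to 4 (Th17 genotype), 0 to 4 (their difference), 663 to 1551 (wild-type subsets) and 801 to 2335 (Tet2-deficient subsets). Of the 6 receptor genes 0 to 1 were called in the Th17 genotype comparison, in the difference and between wild-type subsets, and 1 between Tet2-deficient subsets, each time Klrd1.

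Signs turned for differences that did not pass. With the Xist covariate Klrc1 had -0.086 in the difference of genotype effects, and Klrc1 and Klrc2 had -0.070 and -0.035 between Tet2-deficient subsets. With renewed quantile normalization Klrg1 had 0.0058 between wild-type subsets. With an array left out, Th1 genotype values ranged from -0.0082 to 0.23 for Klrd1 and -0.045 to 0.024 for Klrc2. Th17 genotype values ranged from -0.098 to 0.19 for Klrk1 and -0.22 to 0.041 for Klrg1. The difference ranged from -0.17 to 0.40 for Klrc1, -0.16 to 0.12 for Klrk1 and -0.17 to 0.10 for Klrg1. Subset values ranged from -0.24 to 0.024 for Klrg1 in wild-type cells, and from -0.027 to 0.54 for Klrc1 and -0.0086 to 0.25 for Klrc2 in Tet2-deficient cells. The causes were not tested.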
